A study of Mus musculus with 6 samples.

Results

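The Mmp, Adam, Adamts, Adamtsl and Timp genes encode the metalloproteinases that cut the extracellular matrix and the surface proteins of cells, together with their tissue inhibitors. They were taken from the gene count table by symbol, as protein-coding genes of GENCODE M21 whose names begin with one of these stems followed by a digit. This gave 83 of the 54532 genes listed, namely 22 Mmp, 33 Adam, 19 Adamts, 5 Adamtsl and 4 Timp genes. At least 30 counts over all libraries were found for 57 of them, and 53 of these 57 passed the filter on low counts and were tested. The other 26 genes had fewer than 30 counts, and 8 of those had none.

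RNA-Seq was performed on epididymal fat, the visceral depot beside the epididymis of male mice, with 3 samples from ND-fed mice (normal diet, 4.5% fat) and 3 from HFD-fed mice (high-fat diet, 60% fat). All were untreated male C57BL/6J mice that began their diet at 4 weeks of age and ate it for 16 weeks, so that they were 20 weeks old. Total RNA came from whole tissue, in which fewer cells of a type and less RNA per cell cannot be told apart. The labels do not say whether the 3 samples of a diet were separate animals or pools, so the p-values below measure only the spread between these samples. Library totals were 16996896 to 18859320 counts, and no pair of libraries agreed within counting noise. Adipoq, the adipocyte hormone adiponectin, had 60932, 65619 and 56299 counts in ND libraries and 37840, 63637 and 17917 in HFD libraries, so this adipocyte marker was high in each library.

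Matrix metalloproteinases (MMPs) are secreted or membrane-bound zinc enzymes that are made as inactive proforms and cleave collagens, elastin, laminins and proteoglycans. ADAMs are membrane proteins, and several of them release cytokines, growth factors and receptors from the cell surface, a step called shedding. ADAMTS enzymes are secreted and trim proteoglycans and procollagens, ADAMTSL proteins share their ancillary domains but lack the protease, and TIMPs bind and block the active enzymes. In fat, matrix turnover by these proteins accompanies the growth of adipocytes, of vessels and of the stroma around them.

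Of the Mmp genes, 9 lie side by side on chromosome 9 between 7272514 and 7699585 (GRCm38), a stretch of 427 kb in which no other protein-coding gene was listed, in the order Mmp13, Mmp12, Mmp1b, Mmp3, Mmp10, Mmp8, Mmp27, Mmp20 and Mmp7. The AP-1 element, a binding motif of Fos and Jun proteins, is a textbook feature of MMP promoters, and the 250 bases before each RefSeq start (GRCm38.p6) were searched for the letters TGANTCA, which read the same on both strands, and for TATAAA on either strand. RefSeq starts were matched for 36 of the 57 genes, with 41 promoters in all. TGANTCA was found in 5 of the 41 promoters (12.2%), against 2217 of 32851 promoters of all genes (6.75%). TATAAA was found in 5 of the 41 (12.2%), against 12.4% of all. The 5 with TGANTCA were the second RefSeq start of Mmp12, Mmp3, Mmp13, Mmp7 and 1 start of Adam19. The first 4 belong to the chromosome 9 group and include its highest expressed genes, and are shown from 5′ to 3′ on the plus strand, ending at the base before the start, with TGANTCA and TATAAA in capitals. They cover chr9:7272264-7272513 (Mmp13), chr9:7347124-7347373 (Mmp12), chr9:7445572-7445821 (Mmp3) and chr9:7691840-7692089 (Mmp7).
Mmp13: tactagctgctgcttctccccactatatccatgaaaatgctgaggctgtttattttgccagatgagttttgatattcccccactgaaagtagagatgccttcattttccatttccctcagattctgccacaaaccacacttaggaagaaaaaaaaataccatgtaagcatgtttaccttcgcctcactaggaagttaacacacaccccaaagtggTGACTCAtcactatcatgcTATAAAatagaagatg
Mmp12: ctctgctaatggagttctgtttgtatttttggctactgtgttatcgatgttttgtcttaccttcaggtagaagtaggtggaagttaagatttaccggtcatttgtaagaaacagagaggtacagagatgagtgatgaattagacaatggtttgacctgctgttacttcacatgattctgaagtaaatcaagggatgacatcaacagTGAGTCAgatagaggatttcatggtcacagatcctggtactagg
Mmp3: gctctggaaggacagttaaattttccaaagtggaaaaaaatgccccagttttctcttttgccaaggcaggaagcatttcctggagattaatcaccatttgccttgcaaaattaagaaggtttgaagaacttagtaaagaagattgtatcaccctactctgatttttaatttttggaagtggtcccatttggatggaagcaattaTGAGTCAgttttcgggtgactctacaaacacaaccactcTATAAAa
Mmp7: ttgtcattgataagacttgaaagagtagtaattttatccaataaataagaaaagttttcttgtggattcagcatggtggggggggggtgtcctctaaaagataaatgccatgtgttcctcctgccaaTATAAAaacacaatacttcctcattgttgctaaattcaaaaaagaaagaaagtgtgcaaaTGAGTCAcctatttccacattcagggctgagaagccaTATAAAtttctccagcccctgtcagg
The first base of TGANTCA lay 35 bases before the start in Mmp13, 44 in Mmp12, 46 in Mmp3 and 63 in Mmp7. The other RefSeq start of Mmp12 (chr9:7344147-7344396) held neither motif, which says only that these letters are not in that window. The Mmp12 window shown lies inside the annotated span of the gene, which begins at 7344381. By edgeR's test, described next, Mmp12 and Mmp3 rose with HFD, Mmp13 and Adam19 did not pass and Mmp7 was not tested. Adam8, Mmp11 and Timp1 also rose, and their windows held no TGANTCA. A link between the motif and the changes was not tested.

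Between HFD-fed and ND-fed mice, 6 of the 53 tested genes rose (Mmp12, Adam8, Mmp3, Timp1, Mmp19 and Mmp11) and 7 fell (Adamts19, Adamts16, Mmp9, Adamts12, Mmp15, Adamts9 and Adamtsl1), at an adjusted p-value under 0.05 in edgeR's quasi-likelihood test with Benjamini-Hochberg adjustment over all 15751 tested genes. The 13 genes are 24.5% of those tested, beside 15.9% of all tested genes, 9.85% of which rose and 6.04% of which fell. With each library left out in turn, the number that rose went from 3 to 14 and the number that fell from 2 to 8. In these fits 2.93% to 24.2% of all tested genes were called. DESeq2 took in 74 genes of the families and called 14 higher and 8 lower, beside 12.9% of all its 28368 genes. Both totals include genes, such as Mmp10 and Mmp24, that DESeq2's own filter left without an adjusted p-value. Such genes could not be called, so these shares are not on the same footing as those of edgeR. The 3 HFD libraries lay wholly above the 3 ND libraries in 18 of the tested genes and wholly below them in 12, where 40.9% of all tested genes showed no overlap (21.7% higher and 19.1% lower). At an unadjusted p-value under 0.05, 25 of the 53 genes passed, beside 5353 of all 15751 tested genes. The median log2 fold change was 0.12 over the 53 genes and 0.01 over all tested genes.

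The plot of fold changes by family shows the calls within each family. Of 14 tested Mmp genes 4 rose and 2 fell (median log2 fold change 0.56), and of 14 tested Adam genes 1 rose and none fell by this test (median 0.36). No Adamts gene rose and 4 of 16 fell (median -0.36), with 11 of the 16 below 0. Among the 5 Adamtsl genes 1 fell (median 0.36), and among the 4 Timp genes 1 rose (median 0.45). Differences between the families were not tested.

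**Figure D1:**
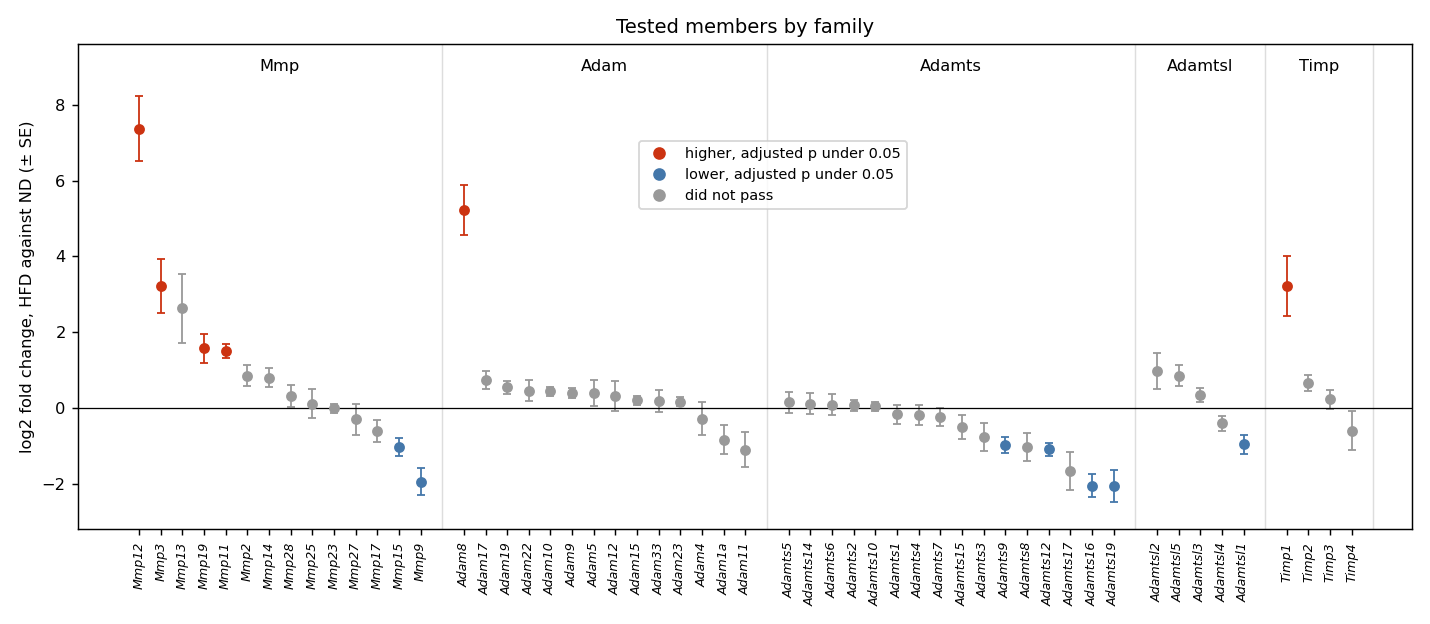
Log2 fold change of HFD against ND for each of the 53 tested genes (y axis, points with ± SE from edgeR's test), sorted within each family along the x axis, with genes that rose in red, those that fell in blue and the rest in grey. Mmp12 at 7.37 and Adam8 at 5.23 stand above the other tested genes of the families, and the 4 Adamts genes that fell lie between -0.98 and -2.07.

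Mmp12 (ENSMUSG00000049723, chromosome 9 from 7344381 to 7369499), the macrophage elastase, showed the largest change among the tested genes of the families. It had 14.5, 8.29 and 7.35 CPM (counts scaled by library size to the usual common total) in ND libraries and 938, 571 and 3481 CPM in HFD libraries. Each HFD library was far above each ND library, and the HFD libraries themselves were spread widely, with 69.0% of all Mmp12 counts in HFD3. The group means were 10.1 ± 3.90 and 1663 ± 1585 CPM (SD, n = 3 each), a ratio of 165, and the log2 fold change was 7.37 (SE 0.86, adjusted p = 0.00624 in edgeR's test). Mmp12 took 0.000764% to 0.00148% of all counts with ND and 0.0558% to 0.340% with HFD. Its last exons overlap those of Mmp1b on the other strand, a gene with 0 counts.

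Mmp3 and Mmp11 are stromelysins, of which Mmp3 cleaves proteoglycans and activates other proenzymes, and Mmp11 is known from stroma around carcinomas and as a brake on fat cell formation. Mmp3 (ENSMUSG00000043613, chromosome 9 from 7445822 to 7455975) was low, with 24, 20 and 14 counts with ND and 102, 59 and 353 with HFD. The diets did not overlap, and HFD3 alone held 61.7% of the counts. In CPM the means were 1.05 ± 0.31 and 9.82 ± 9.16 (SD, n = 3 each), and the log2 fold change was 3.22 (SE 0.71, adjusted p = 0.0263, edgeR). Mmp11 had 12.3, 10.8 and 10.4 CPM with ND and 38.6, 31.0 and 24.9 CPM with HFD. Here HFD3 was the lowest of its group, unlike in the other genes that rose, and the groups were well apart (log2 fold change 1.5, SE 0.19, adjusted p = 0.00652, edgeR). The exons of Mmp11 overlap those of Chchd10, whose own log2 fold change was -1.12 (adjusted p = 0.0773, edgeR).

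Mmp19, which cleaves basement membrane components, had 51.0, 56.1 and 44.0 CPM with ND and 124, 79.1 and 247 CPM with HFD, a log2 fold change of 1.57 (SE 0.39, adjusted p = 0.0365, edgeR). Its HFD libraries lay above all ND libraries and in the order HFD2, HFD1, HFD3. Mmp13, the main collagenase of rodents, had 27, 3 and 18 counts with ND and 46, 32 and 198 with HFD, so that 61.1% of its counts came from HFD3. Although the diets did not overlap, it did not pass (log2 fold change 2.63, SE 0.90, adjusted p = 0.0878, edgeR). Without HFD2 its adjusted p was 0.0449 in edgeR's test (log2 fold change 3.03), and over the 6 fits with a library left out it went up to 0.251, reached without HFD3 at a log2 fold change of 1.37. DESeq2 gave it an adjusted p of 0.0115.

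The gelatinases, which digest denatured collagen and the type IV collagen of basement membranes, went apart. Mmp9 fell, from 19.0, 7.95 and 15.6 CPM with ND to 3.61, 4.46 and 3.05 CPM with HFD, a log2 fold change of -1.94 (SE 0.35, adjusted p = 0.0149, edgeR). The ND libraries varied more among themselves than the HFD libraries, and the lowest of them was still above every HFD library. Mmp2 had 81.7, 70.2 and 82.0 CPM with ND and 112, 99.98 and 212 CPM with HFD and did not pass (log2 fold change 0.86, SE 0.28, adjusted p = 0.0806, edgeR), although its groups did not overlap. Neutrophils carry much Mmp9 as a protein, and the 10 neutrophil markers together had 5.40 to 8.31 CPM with ND and 6.56 to 10.6 CPM with HFD. S100a8, which monocytes also express and which rose, held much of that sum in HFD libraries, and the other 9 markers summed to 3.50 to 5.61 CPM with ND and 1.56 to 3.49 CPM with HFD, with Camp lower by edgeR's test. Their part in the Mmp9 difference was not tested.

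Of the membrane-type MMPs, Mmp15 fell from 43.9, 55.3 and 39.4 CPM to 24.2, 28.1 and 15.7 CPM (log2 fold change -1.03, SE 0.23, adjusted p = 0.0286, edgeR). Mmp14, the membrane collagenase that activates pro-Mmp2 together with Timp2, had 85.0, 78.7 and 99.2 CPM with ND and 152, 101 and 205 CPM with HFD and did not pass (log2 fold change 0.80, SE 0.25, adjusted p = 0.0724, edgeR). For Mmp14 the lowest HFD library was only just above the highest ND library. Mmp17 and Mmp25 (membrane type) and Mmp23, Mmp27 and Mmp28 (other MMPs), named after their values were seen, did not pass either. Their log2 fold changes went from -0.60 in Mmp17 to 0.31 in Mmp28. Mmp23 varied little, at 28.0 to 32.1 CPM in all 6 libraries.

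Some Mmp genes did not pass the filter on low counts. Mmp7 (matrilysin, an enzyme of epithelia) had 0, 2 and 1657 counts in ND libraries and 0 in each HFD library, so 99.9% of its counts lay in ND3. In the same library the 10 epithelial markers summed to 211 CPM, against 10.1 to 14.0 CPM in the other 5, and the 9 motile cilium markers to 141 CPM, against 4.64 to 8.36 CPM. Their part in the Mmp7 counts was not tested. Mmp16, a membrane-type MMP, had 17, 4 and 16 counts with ND and 2, 6 and 1 with HFD. Of the collagenases other than Mmp13, Mmp8 had 2, 1 and 0 counts with ND and 2, 5 and 15 with HFD, while Mmp1b had none, and Mmp10, a stromelysin, had 0 counts in every ND library and 10, 0 and 10 with HFD. Without HFD2, Mmp10 entered the test and was called higher (adjusted p = 0.0202, edgeR), and with no filter on all 6 libraries its adjusted p was 0.0989.

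Per length, the make-up of the Mmp transcripts changed with Mmp12. The FPKM values (counts scaled by gene length and library size) of the listed Mmp genes summed to 103, 94.3 and 173 in ND libraries and to 275, 201 and 702 in HFD libraries. Mmp12 held 1.98%, 1.24% and 0.589% of that sum with ND and 47.4%, 39.4% and 68.7% with HFD. Without Mmp12 the sums were 101, 93.1 and 172 with ND and 144, 122 and 220 with HFD, and the diets then overlapped through ND3, in which Mmp7 gave 77.9 FPKM. Without both Mmp12 and Mmp7 the sums were 101, 93.0 and 94.1 with ND and 144, 122 and 220 with HFD, with no overlap.

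**Figure D2:**
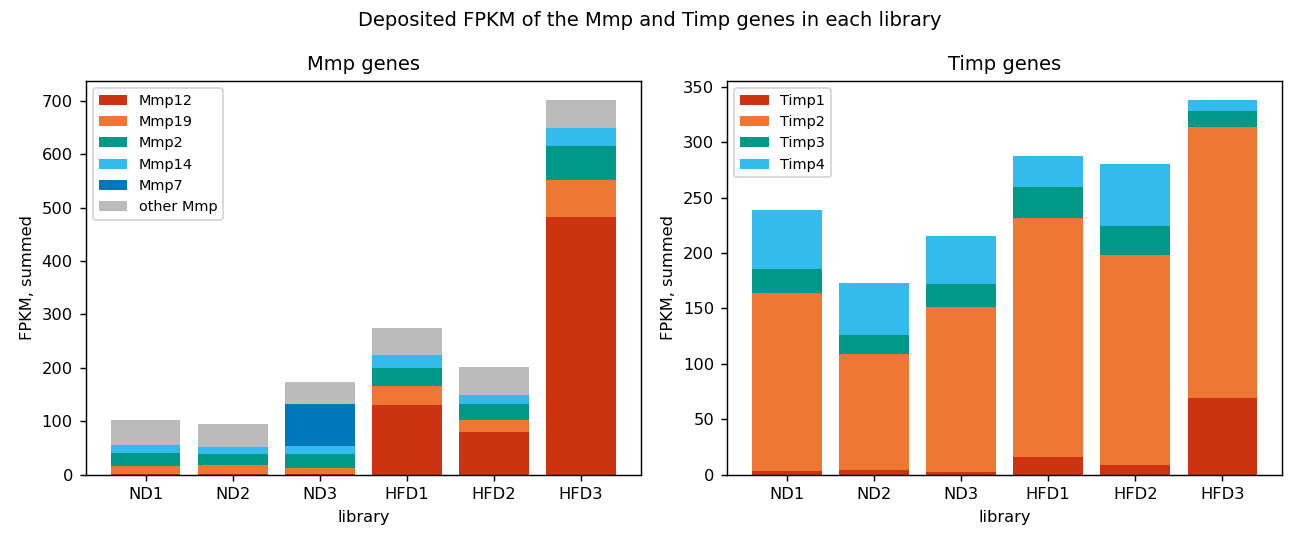
Stacked bars of summed FPKM (y axis, linear from 0) in each of the 6 libraries (x axis), for the Mmp genes and for the Timp genes. Mmp12 holds under 2% of the Mmp sum in each ND library and 39.4% to 68.7% in each HFD library, and Timp2 is the main part of the Timp sum in all 6.

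Among the ADAMs, Adam8 (ENSMUSG00000025473, chromosome 7 from 139978932 to 139992562), a sheddase of leukocytes, rose from 9.72, 5.51 and 12.0 CPM with ND to 302, 121 and 602 CPM with HFD. The diets were far apart and HFD3 was the highest, as in Mmp12. The means of 9.09 ± 3.31 and 342 ± 243 CPM (SD, n = 3 each) differed by a ratio of 37.6, and the log2 fold change was 5.23 (SE 0.65, adjusted p = 0.00689, edgeR). With 37.9 FPKM on average over the 6 libraries, Adam8 ranked 5 among all members.

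The other sheddases changed less than Adam8. All 8 tested sheddases had a log2 fold change above 0, from 0.18 in Adam33 to 5.23 in Adam8, and in 6 of them the HFD libraries lay wholly above the ND libraries, beside 50.5% of all tested genes above 0 and 21.7% wholly above. Adam8 was the only one of the 8 to pass. Adam10, which releases Notch receptors and many other surface proteins, had 109, 109 and 102 CPM with ND and 147, 127 and 160 CPM with HFD (log2 fold change 0.44, SE 0.13, adjusted p = 0.0558, edgeR). Adam17, the enzyme that frees tumour necrosis factor, had 62.2, 67.9 and 57.2 CPM with ND and 97.4, 72.2 and 143 CPM with HFD (log2 fold change 0.74, SE 0.24, adjusted p = 0.0778, edgeR). In both the diets did not overlap, by a narrow margin in Adam17. The exons of Adam17 overlap those of Iah1, which fell (log2 fold change -0.79, adjusted p = 0.0227, edgeR). Adam9, the most abundant ADAM per length at 43.3 FPKM, had 155, 161 and 141 CPM with ND and 182, 210 and 211 CPM with HFD (log2 fold change 0.40, SE 0.13, adjusted p = 0.0741, edgeR). DESeq2 called these 3 genes higher, with adjusted p-values of 0.0291 for Adam10, 0.0366 for Adam17 and 0.0470 for Adam9.

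Adam11, an ADAM with no active site that is best known from nerve tissue, had 3.62, 3.36 and 7.85 CPM with ND and 2.90, 2.71 and 1.32 CPM with HFD, and did not pass (log2 fold change -1.10, SE 0.46, adjusted p = 0.141, edgeR). The remaining tested ADAMs had log2 fold changes from -0.83 in Adam1a to 0.55 in Adam19. Of the 33 listed Adam genes 19 had fewer than 30 counts, among them Adam2 and Adam3, which are sperm proteins, and Adam7, an epididymal gene with 14 counts in ND3 and at most 2 in any other library. These counts are too low for a comparison of the diets.

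**Figure D3:**
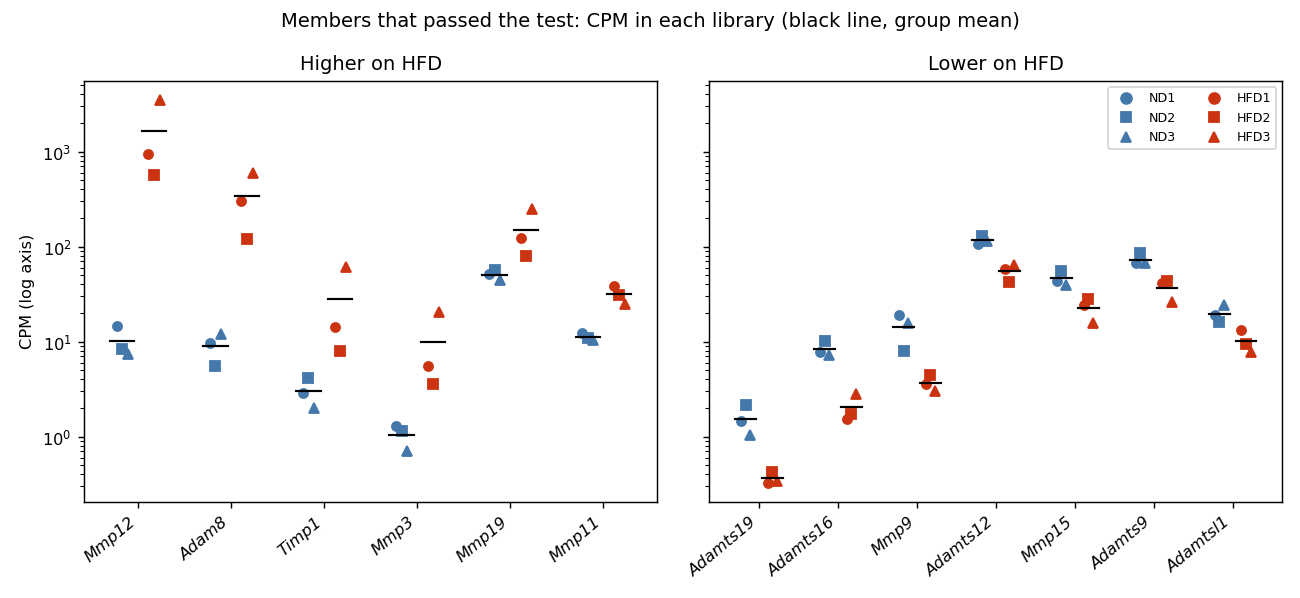
CPM (y axis, log scale) in the 3 ND and 3 HFD libraries for the 13 genes that passed edgeR's test, each point 1 library and each bar the group mean. In none of the 13 genes do the diets overlap, and the HFD points spread most in Mmp12, Timp1 and Mmp3, where HFD3 is the highest.

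The Adamts genes that passed all fell. Adamts12 (ENSMUSG00000047497, chromosome 15 from 11064790 to 11349231), which cleaves cartilage oligomeric matrix protein, had 107, 129 and 114 CPM with ND and 57.9, 42.5 and 64.4 CPM with HFD. Its HFD libraries were close to each other and well below ND (log2 fold change -1.09, SE 0.17, adjusted p = 0.0112, edgeR). Adamts16 (ENSMUSG00000049538, chromosome 13 from 70727802 to 70841811) dropped from 7.83, 10.2 and 7.20 CPM to 1.53, 1.75 and 2.82 CPM, with means of 8.41 ± 1.59 and 2.03 ± 0.69 CPM (SD, n = 3 each, log2 fold change -2.04, SE 0.31, adjusted p = 0.00998, edgeR). Adamts9, a protease of versican and aggrecan, had 66.9, 85.5 and 66.5 CPM with ND and 41.9, 43.0 and 26.1 CPM with HFD (log2 fold change -0.98, SE 0.21, adjusted p = 0.0258, edgeR). Adamts19 was scarce, with 27, 37 and 21 counts with ND and 6, 7 and 6 with HFD, and its log2 fold change was -2.07 (SE 0.42, adjusted p = 0.0211, edgeR). All 4 were lower in every HFD library than in any ND library, a pattern found in 7 of the 16 tested Adamts genes, while none of the 16 showed the opposite pattern (19.1% and 21.7% of all tested genes).

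Adamts17, which is linked to fibrillin microfibrils, had 1.30, 2.38 and 0.95 CPM with ND and 0.55, 0.60 and 0.29 CPM with HFD (log2 fold change -1.67, SE 0.50, adjusted p = 0.0613, edgeR). Adamts8 had 0.97, 1.51 and 1.5 CPM with ND and 0.60, 0.54 and 0.81 CPM with HFD (log2 fold change -1.02, SE 0.37, adjusted p = 0.103, edgeR). Neither passed, although neither had overlapping groups. Adamts20, below the filter, had 4, 17 and 28 counts with ND and 0, 2 and 0 with HFD, and its mean CPM was at least 5.03-fold lower with HFD than with ND when each HFD library was set at the floor of 3 counts. It was called lower by DESeq2 (adjusted p = 0.0170), by edgeR with no filter (0.0343) and by edgeR without HFD2 (0.0328), and not in the other fits that held it. Adamts18, the other Adamts gene below the filter, had 6, 23 and 4 counts with ND and 17, 7 and 8 with HFD, with overlapping diets.

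The more abundant proteoglycan and procollagen enzymes showed small differences. Adamts5, the main aggrecanase of the mouse, had 352, 380 and 292 CPM with ND and 369, 522 and 244 CPM with HFD (log2 fold change 0.15, SE 0.28, adjusted p = 0.743, edgeR). Adamts2, a procollagen N-proteinase, had 189, 199 and 168 CPM with ND and 180, 179 and 227 CPM with HFD (log2 fold change 0.08, SE 0.15, adjusted p = 0.757, edgeR). Adamts1 had 90.3 ± 11.2 CPM with ND and 80.4 ± 25.4 CPM with HFD (SD, n = 3 each). In these 3 genes, named after their values were seen, the diets overlapped. The summed FPKM of the Adamts genes was 101 to 116 with ND and 86.1 to 111 with HFD.

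Among the ADAMTSL proteins, which lie in the matrix and several of which bind fibrillin, Adamtsl1 fell from 18.9, 15.95 and 24.5 CPM to 13.3, 9.52 and 7.83 CPM (log2 fold change -0.95, SE 0.25, adjusted p = 0.0428, edgeR). Adamtsl2 had 2.97, 4.41 and 3.65 CPM with ND and 4.97, 12.9 and 3.92 CPM with HFD. Its highest value was in HFD2, the diets overlapped, and it did not pass (log2 fold change 0.98, SE 0.47, adjusted p = 0.188, edgeR). Without HFD2 the log2 fold change was 0.28.

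The inhibitors differed strongly in level. Timp2, which inhibits MMPs and also takes part in the activation of pro-Mmp2, was the most abundant of all members per length, at 177 FPKM on average, followed by Mmp12 at 116, Adam9 at 43.3, Timp4 at 39.6 and Adam8 at 37.9 FPKM. It had 616, 397 and 579 CPM with ND and 835, 732 and 949 CPM with HFD. Each HFD library was above each ND library, and Timp2 did not pass (log2 fold change 0.66, SE 0.22, adjusted p = 0.0805 in edgeR and 0.0163 in DESeq2). Timp1 (ENSMUSG00000001131, chromosome X from 20870166 to 20874735), a soluble inhibitor that is readily induced in inflamed tissue, rose from 2.86, 4.12 and 2.0 CPM to 14.3, 7.95 and 61.4 CPM. HFD3 held 65.6% of its counts, and the log2 fold change was 3.22 (SE 0.79, adjusted p = 0.0350, edgeR).

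Timp3, the matrix-bound inhibitor that also blocks Adam17 and the aggrecanases, had 170, 140 and 168 CPM with ND and 227, 217 and 118 CPM with HFD. HFD1 and HFD2 were above all ND libraries and HFD3 was below them, and Timp3 did not pass (log2 fold change 0.23, SE 0.25, adjusted p = 0.552, edgeR). Timp4, which is high in fat and heart, had 309, 268 and 255 CPM with ND and 164, 328 and 60.6 CPM with HFD. HFD2 was the highest and HFD3 the lowest of all 6 libraries for Timp4 (log2 fold change -0.59, SE 0.52, adjusted p = 0.459, edgeR). Without HFD2 the log2 fold change was -1.30 (adjusted p = 0.0547, edgeR), and without HFD3 it was -0.19. The same order of the HFD libraries, HFD2, HFD1 and HFD3 from high to low, held for the sum of the 15 adipocyte markers. Not each marker had it, and Gpd1 was lowest in HFD1. The share of all genes with this order is not given here. The 15 markers summed to 26732, 39831 and 17876 CPM in HFD1, HFD2 and HFD3, and to 39544 to 53019 CPM with ND. Only HFD2 thus reached the ND range. The part of these markers in the Timp4 levels was not tested. Timp1, Timp3 and Timp4 lie on the opposite strand within the spans of the synapsin genes Syn1, Syn3 and Syn2. The exons of Timp3 overlap those of Syn3, whose log2 fold change was -0.69 (adjusted p = 0.299, edgeR). The exons of Timp4 overlap those of Syn2, whose log2 fold change was -0.96 (adjusted p = 0.127, edgeR).

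As shares of the summed Timp FPKM, Timp2 took 60.2% to 69.2% with ND and 67.3% to 74.9% with HFD. Timp1 took 1.37%, 2.74% and 1.05% with ND and 5.63%, 3.21% and 20.5% with HFD, and Timp4 took 22.3%, 26.9% and 20.2% with ND and 9.71%, 19.9% and 3.05% with HFD. The Timp1 share was thus higher and the Timp4 share lower in every HFD library than in any ND library, by a small margin in HFD2. The sum itself was 239, 173 and 216 FPKM with ND and 288, 281 and 338 FPKM with HFD. Divided by the Mmp sum it gave ratios of 2.31, 1.83 and 1.25 with ND and 1.05, 1.39 and 0.482 with HFD, and, without Mmp12 and Mmp7, of 2.36, 1.85 and 2.29 with ND and 1.99, 2.30 and 1.54 with HFD. The diets overlapped in both ratios, in the first of them through ND3 alone. Without Mmp7 only, the ratios were 2.31, 1.83 and 2.27 with ND and 1.05, 1.39 and 0.482 with HFD, with no overlap. An exact permutation test of 3 against 3 libraries has a smallest p of 0.1, so the ratios were not tested.

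How firmly the 13 calls held differed. Over the 6 fits with a library left out, Mmp12, Mmp11, Adam8 and Adamts16 passed edgeR's test in all 6, and Adamts12 was lost only without ND2 (adjusted p = 0.0515). Mmp3, Mmp19 and Timp1 were each lost without HFD1, ND1, ND2 or ND3, with adjusted p-values up to 0.0919, 0.116 and 0.118. Without HFD3 these 3 genes passed, and their log2 fold changes were then 2.10, 0.99 and 1.88, in place of 3.22, 1.57 and 3.22. Without HFD3 the log2 fold change of Mmp12 was 6.21 and that of Adam8 4.52. Mmp9 was lost without HFD1, ND1 or ND3 (adjusted p up to 0.0713), Adamts19 without HFD1, ND1 or ND2 (up to 0.0944), and Adamts9 and Mmp15 without HFD1, ND1, ND2 or ND3 (up to 0.0887 and 0.0960). Adamtsl1 was lost in each of the 6 (up to 0.113). Without HFD2, Adam10, Adam17, Mmp14 and Mmp2 passed, with adjusted p-values of 0.0230, 0.0123, 0.00795 and 0.0284. The number of calls over all tested genes also moved, from 2504 to between 474 and 3940 when a library was left out.

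The HFD libraries were ordered alike in most of the genes that rose. The order HFD2, HFD1, HFD3 from low to high held for 5 of the 6, all but Mmp11, beside 73.0% of all genes that rose had it. HFD3 was the highest HFD library in 5 of the 6, beside 80.6% of all genes that rose. In the 7 genes that fell HFD3 was the lowest in 4, beside 69.6% of all genes that fell. The order HFD2, HFD1, HFD3 from low to high was also seen in the sum of the 15 macrophage markers. This sum was 2090 to 2194 CPM with ND and 7282, 5128 and 12757 CPM in HFD1, HFD2 and HFD3. By edgeR's test 10 of the 15 were higher and none lower. Not each marker had the order, and in Cd163 HFD3 was the lowest HFD library. Of 10 markers of lipid-associated macrophages 6 rose and 1 fell, and their sum was 10738 to 14209 CPM with ND and 12067 to 16761 CPM with HFD. Lpl, lipoprotein lipase, which adipocytes also express, held 47.0% to 91.6% of that sum, and the other 9 markers summed to 982 to 1324 CPM with ND and to 4238, 2666 and 8879 CPM in HFD1, HFD2 and HFD3. Of the 15 adipocyte markers 1 rose and 3 fell, and none of 10 endothelial, 12 progenitor and fibroblast, 8 mesothelial and 10 lymphocyte markers passed. No marker gene of these lists but Defb48, one of 10 epididymal and germ cell markers, was at 0 in all libraries, and that list summed to at most 6.50 CPM. The part of cell numbers in the changes of the metalloproteinase genes was not tested.

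**Figure D4:**
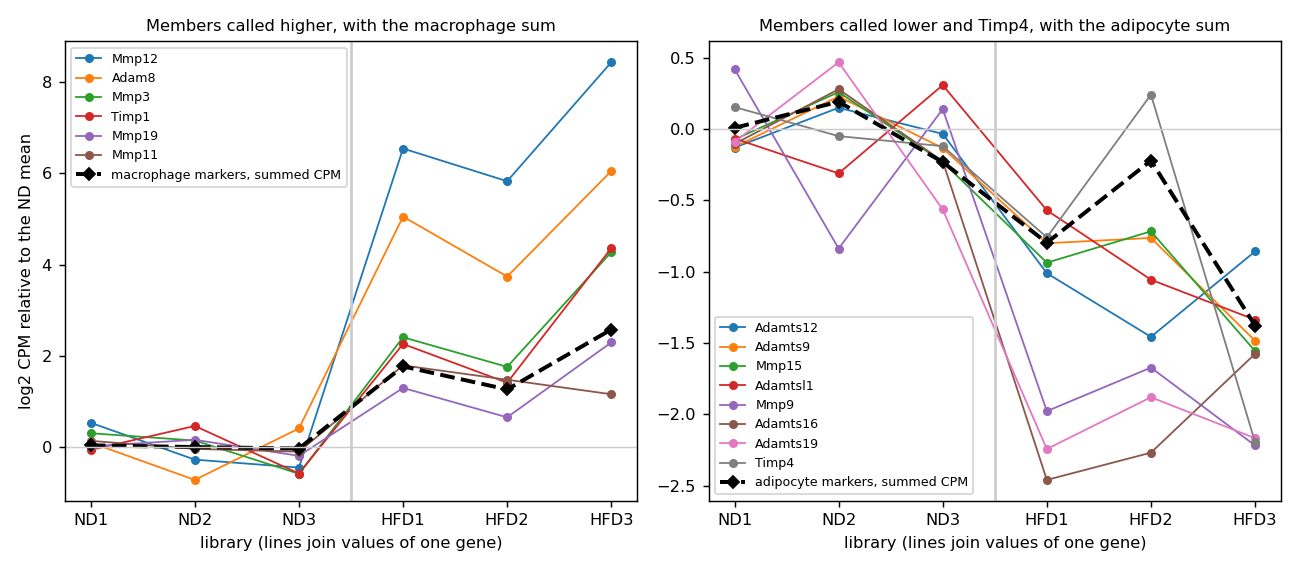
Log2 CPM relative to the ND mean (y axis) in each of the 6 libraries (x axis), with the 6 genes that rose beside the summed macrophage markers on the left, and the 7 genes that fell and Timp4 beside the summed adipocyte markers on the right, where lines join the values of 1 gene or list. Mmp12, Adam8, Mmp3, Timp1 and Mmp19 have the order of the macrophage sum within HFD (HFD2, HFD1, HFD3), and Mmp11 does not. Timp4, Mmp15, Mmp9 and Adamts9 have the order of the adipocyte sum within HFD (HFD3, HFD1, HFD2), and Adamts12, Adamts16, Adamts19 and Adamtsl1 do not. HFD3 was the lowest HFD library in 69.6% of all genes that fell, and the share of them with the full order is not given here.

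The families act together with proteins that activate, anchor, inhibit or are cut by them. A list of 72 such partners had 56 tested genes, of which 14 rose and 2 fell (28.6%, beside 15.9% of all tested genes), and their median log2 fold change was 0.04. When a library was left out the 16 calls went down to 3 at the lowest, without HFD1, ND1 or ND2, and to 6 without ND3. Plaur, the urokinase receptor, went from 8.91, 11.4 and 8.40 CPM to 58.5, 24.8 and 97.0 CPM (log2 fold change 2.65, SE 0.46, adjusted p = 0.0139, edgeR). Each HFD library was above each ND library for Plaur, and HFD3 was the highest.

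Plau, the urokinase itself, rose as well (log2 fold change 1.42, adjusted p = 0.0206, edgeR), while the proprotein convertase Pcsk5 fell from 26.7, 33.8 and 34.3 CPM to 15.6, 23.5 and 13.6 CPM (log2 fold change -0.85, SE 0.22, adjusted p = 0.0446, edgeR). Of the 10 tested genes of proenzyme activation 3 rose, Plaur and Plau among them, and Pcsk5 was the 1 that fell. Of 17 tested substrates of shedding 5 rose, namely Tnfrsf1b, Csf1r, Il6ra, Tnf and Hbegf, and none fell by this test. Tnfrsf1b, a receptor of tumour necrosis factor, had 43.5, 42.5 and 39.5 CPM with ND and 144, 109 and 223 CPM with HFD (log2 fold change 1.92, SE 0.26, adjusted p = 0.00789, edgeR). Among 9 tested genes of ADAM trafficking Tspan17 (log2 fold change 0.91) and Frmd8 (0.77) rose. Of 11 tested ADAMTS substrates and matrix partners Ncan and Pcolce2 rose, and Papln, papilin, fell from 11.9, 12.5 and 11.5 CPM to 8.09, 6.75 and 4.204 CPM (log2 fold change -0.92, SE 0.25, adjusted p = 0.0492, edgeR). Of 6 tested inhibitors and uptake receptors Tfpi2 (log2 fold change 1.42) and Lrp1 (1.04) rose, and none of 3 tested other metalloproteases passed. Plau and the genes of this paragraph other than Pcsk5, Tnfrsf1b and Papln were named after their values were seen.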

How the data were processed

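RNA-Seq of epididymal fat from 3 ND-fed and 3 HFD-fed samples was used, with diet and replicate number from the sample labels. The authors deposited raw counts per gene, without normalization, and FPKM values, which equal the count divided by a gene length and a library factor (checked on 11492 genes). The paper names TopHat and Cufflinks on GRCm38, while the submitters' processing notes name CASAVA 1.8, fastp, HISAT2 2.0.5, featureCounts 1.5.0-p3 and DESeq2 1.20.0 with a human build. The identifiers are those of the mouse, and 54495 of 54532 were found in GENCODE M21. The strand setting of the counting is not given in the sources used here, so reads of overlapping genes cannot be told apart.

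Counts were tested with glmQLFit and glmQLFTest of edgeR 4.0.16 in R 4.3.3 (quasi-likelihood, robust=TRUE, TMM, filterByExpr), with diet alone in the model, and adjusted p-values under 0.05 passed. The standard error was derived from the F statistic. CPM values use TMM-scaled library sizes, in which the floor of 3 counts is 0.150 to 0.181 CPM. Floors cover counting error only. The labels give no batch or date.

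The test was repeated by DESeq2 1.42.0 and by voom of limma 3.58.1, in edgeR with size factors of DESeq2 or unscaled library sizes, without a filter or with one of 10 counts in 3 libraries, with robust=FALSE, with a block for the replicate number, and with single libraries left out. FPKM was tested by limma on log2(FPKM + 1) and log2(FPKM + 0.1) where it reached 0.5 in 3 libraries, and with no such filter. On simulated data for HFD against ND, edgeR recovered 136 of 200 changed genes among 15461 and made 14 false calls in 150, and DESeq2 recovered 138 among 15751 with 22 false calls in 160.

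Genes are named where they passed, where they are Timp1 to Timp4, Mmp9, Mmp11, Mmp13, Mmp15, Mmp19, Mmp2, Mmp14, Adam10 or Adam17, where they are among the 5 with the highest mean FPKM or the 5 largest changes that did not pass, where 1 library held over 60% of at least 30 counts, and, for partners, where they had the 3 largest changes in a direction. The genes and lists were chosen with earlier results of these data known. Promoters are from RefSeq (GRCm38.p6). Protein sequences were not used here. Some results are not reported here.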

Additional observations from a re-analysis of the deposited data

How the results depend on the processing

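Of the log2 fold changes of the named genes, 366 values under the alternatives kept their direction and side of the threshold, 58 kept the direction and no longer passed, 12 kept it and newly passed, and none of them reversed. Mmp12, Mmp11, Adam8 and Adamts16 passed under every alternative run. The 6 genes of the families that rose became 14 with DESeq2, 3 without a filter, 3 with the replicate number as a block, and 3 on log2(FPKM + 1) with or without its filter. The 7 that fell became 2, and the 16 partners 5, on log2(FPKM + 1) without a filter. With a library left out, those that rose went from 3 to 14, those that fell from 2 to 8 and the partners from 3 to 16. The cause of these shifts was not tested. Same-numbered samples did not deviate together (correlations of -0.0858, -0.0556 and -0.00532, and no sample was closest to its own number). With 3 samples of each diet, these values cannot exclude a weaker pairing by number. The 9 genes called with the block were all among the 13. DESeq2 called 22 of its 74 genes of the families, among them all 13, beside 12.9% of all its genes. Both totals include genes left without an adjusted p-value. Depth limits the 26 genes with fewer than 30 counts and Mmp16, Adamts18 and Adamts20, which entered only some of the fits. Of these genes Adamts20 was called lower by DESeq2, with no filter and without HFD2, and Mmp10 higher without HFD2. Sums without Mmp7, S100a8 or Lpl were chosen after seeing the data.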
